A study of Caenorhabditis elegans with 12 samples.

Results

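The genes examined are the C. elegans genes named fbxa, fbxb and fbxc, which encode F-box proteins. Members were every gene whose WormBase symbol is fbxa, fbxb or fbxc followed by a hyphen and digits. This rule found 315 genes among 22106 measured genes: 169 fbxa, 104 fbxb and 42 fbxc genes. All members are annotated as protein-coding. The symbols were the only criterion for membership, although the family was chosen with earlier results of these data known.

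An F-box protein carries a short motif, the F-box, that binds a Skp1-related adaptor protein and through it a cullin. The resulting SCF complex (Skp1, cullin, F-box) is a ubiquitin ligase, in which the F-box protein selects the substrate. Nematode genomes hold a greatly expanded set of such genes with many recent copies, and several members act in the response of the intestine to intracellular pathogens and proteotoxic stress. Most individual fbxa, fbxb and fbxc genes have no described substrate.

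Polyadenylated RNA of whole animals was sequenced in 12 libraries, 3 in each of 4 groups. The daf-2 strain (CB1370) carries the e1370 allele of the insulin-like receptor gene, and the daf-2;daf-42 strain (LJ2703) carries e1370 together with the ys54 allele of daf-42 and is called the double mutant. All animals were raised at 25 °C, a temperature at which e1370 larvae enter dauer, the alternative larval stage of unfavourable conditions. Harvests were made 52 h or 60 h after egg laying. Every group therefore shares the daf-2 mutation, and no wild-type animals were analysed here. Per the labels, the 60 h collection from the double mutant mixed live with dead larvae of the L2d stage, which precedes dauer. The proportion of dead larvae is not given, so death and genotype cannot be told apart at 60 h. Each library is a pool of animals, and the labels do not say that replicates came from separate cultures. The p-values therefore measure the spread between these libraries, which may be technical.

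Libraries held 30011686 to 43519410 estimated counts. Replicates of 1 group differed by more than sampling noise in every pair (chi-square over degrees of freedom of 13.7 to 475). The mutated gene daf-42 differed by -2.80 on the log2 scale between the genotypes at 60 h (edgeR adjusted p = 0.00277) and by -1.08 at 52 h, where the difference was not called (edgeR adjusted p = 0.838). Correcting each library for its trend over transcript length (length offset) gave -1.61 at 60 h and a called difference of -1.32 at 52 h (edgeR adjusted p = 0.0105). The libraries hold whole animals, so fewer cells of a type and less RNA per cell cannot be told apart.

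The subfamilies were expressed at very different levels. Of the fbxa genes, 129 of 169 (76.3%) had enough counts for a test, against 19 of 104 fbxb genes (18.3%) and 23 of 42 fbxc genes (54.8%). Among all genes, 16369 of 22106 (74%) were tested. In total 171 members were tested and 144 were not, and 31 members (2 fbxa, 23 fbxb and 6 fbxc) had no count in any library. The median level over all members of a subfamily was 1.15 TPM (a level per transcript length, scaled to the library) for fbxa, 0.0193 TPM for fbxb and 0.249 TPM for fbxc. Tested members had a median level of 1.92 TPM, below the 9.07 TPM of all tested genes. The filter keeps a gene that is high in 1 group alone, so the tested members are not a sample of all members.

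A few genes carried much of the summed fbxb and fbxc levels, and less of that of fbxa. Only 14 members exceeded a mean of 10 TPM, 12 of them fbxa and 2 fbxc. The highest fbxa levels were 43.0 TPM for fbxa-24, 29.9 TPM for fbxa-156 and 25.0 TPM for fbxa-60, together 17.7% of the summed fbxa level. The highest fbxc levels were 23.0 TPM for fbxc-4, 14.4 TPM for fbxc-5 and 8.71 TPM for fbxc-54, and these 3 genes made up 53.9% of the summed fbxc level. No fbxb gene exceeded the 2.36 TPM of fbxb-56, which was followed by fbxb-98 at 2.28 TPM and fbxb-7 at 2.02 TPM. These 3 genes made up 43.0% of the summed fbxb level.

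Summed over its members, the fbxb subfamily measured 20.6, 17.0 and 17.8 TPM in daf-2 and 11.7, 12.8 and 13.2 TPM in the double mutant at 52 h. At 60 h it measured 20.7, 19.3 and 23.8 TPM in daf-2 and 10.4, 9.33 and 8.67 TPM in the double mutant. The double mutant libraries lay below the daf-2 libraries at both times without overlap. The fbxa sum measured 621 ± 63.1 TPM (SD, n = 3) in daf-2 and 568 to 801 TPM in the double mutant at 52 h, and 395 ± 33.7 TPM and 497 ± 52.0 TPM at 60 h. The fbxc sum measured 104 ± 18.0 TPM and 110 ± 26.6 TPM at 52 h, and 60.1 ± 3.67 TPM and 68.1 ± 8.25 TPM at 60 h. For fbxa and fbxc the 2 genotypes overlapped at 52 h, and in daf-2 both sums were lower at 60 h. At 60 h the fbxa sums of the double mutant (446 to 550 TPM) all lay above those of daf-2 (363 to 430 TPM).

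Summed CPM (counts scaled to library size, used to compare a gene across libraries) gave another picture of time in the double mutant. Its fbxa sums ranged from 672 to 807 CPM at 52 h and from 688 to 846 CPM at 60 h, so the fall seen in TPM was absent. Its fbxc sums also overlapped between the times in CPM (93.2 to 127 and 93.3 to 114). At 60 h the fbxc sums of the 2 genotypes overlapped in TPM but not in CPM, where daf-2 measured 56.0 to 74.4. The order of the fbxb sums, and that of the fbxa sums at 60 h, held on both scales. These sums are descriptions and were not tested.

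**Figure D1:**
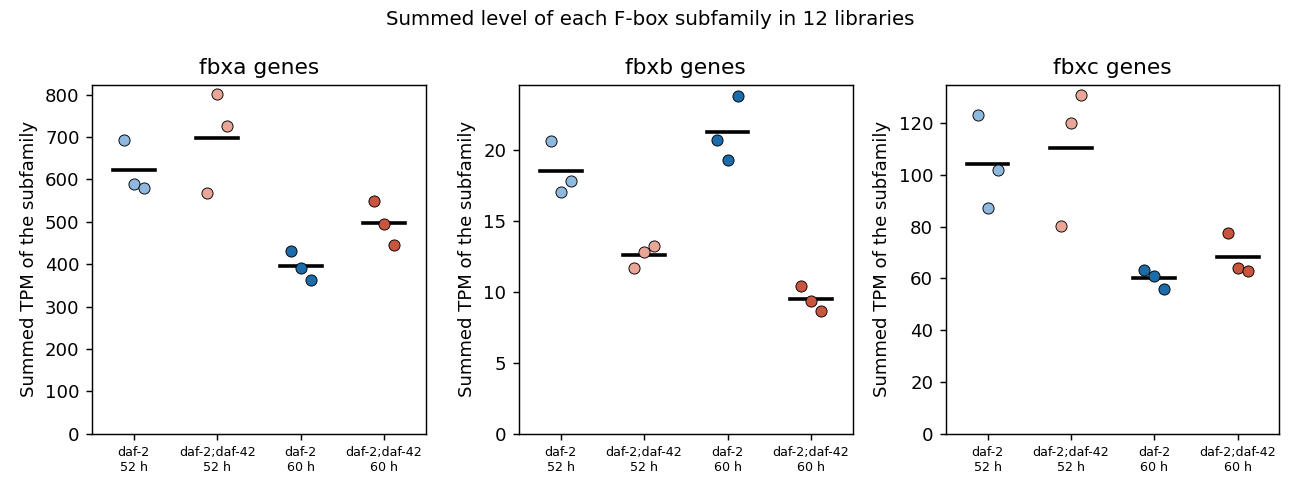
Summed level of fbxa, fbxb and fbxc genes in TPM (vertical axes from 0, scaled for each subfamily) in the 12 libraries of the 4 groups; points are libraries and bars are means of 3. The fbxb sums of daf-2;daf-42 (8.67 to 13.2 TPM) lie below those of daf-2 (17.0 to 23.8 TPM), whereas the fbxa and fbxc sums in TPM are lower at 60 h than at 52 h in each genotype, which in CPM holds in daf-2 alone.

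The genes are clustered on a few chromosomes. Of the fbxa genes, 71 lie on chromosome V and 60 on chromosome III. Chromosome II holds 58 of the fbxb genes and 35 of the fbxc genes, and the other 7 fbxc genes lie on chromosome IV. In all, 178 members sit next to another member with no other protein-coding gene between them, in 53 runs, and 137 members stand alone. The longest run holds 12 fbxa genes on chromosome III from 1265623 to 1308294 (WBcel235). A run on chromosome II from 1682518 to 1694630 holds 7 fbxb and fbxc genes, and none of them had enough counts for a test.

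Near-identical copies make some of these values uncertain. Reads that fit several transcripts are divided between them by the quantification, which leaves counts that are not whole, and 35 members (11.1%) had such shared reads in at least 1 library, against 12.2% of all genes. Of these 35, 27 were fbxa, 1 was fbxb and 7 were fbxc genes, and 28 were tested. A whole count does not show that a gene shares no reads, and the sequences of copies were not compared. On chromosome IV, between 891239 and 911196, the symbol fbxc-4 is given to 3 annotated genes, fbxc-5 to 2 and fbxc-8 to 4. The genes of 1 symbol there received exactly equal counts in every library, so the copies could not be told apart and were summed.

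For several genes the partner of the shared reads could be found, because the counts of the pair added up to whole numbers. Such pairs were fbxc-4 with fbxc-5, fbxc-8 with fbxc-12, fbxa-156 with fbxa-157, fbxa-151 with fbxa-78, fbxa-24 with fbxa-67, and fbxa-14 with fbxa-15. The genes fbxa-48 and fbxa-9 shared reads in 8 libraries and also overlap on opposite strands. The gene fbxa-188 shared reads with skr-5, a Skp1-related gene, in all 12 libraries. For fbxa-59 and fbxa-60, which shared reads in 11 libraries, no pair gave whole counts. Exons of 41 members overlap an exon of another gene, and reads there may be assigned to either gene. Differences between the members of such pairs are uncertain, whereas the sum of a pair is not affected by the division.

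At 52 h few F-box genes were called for genotype. Only 3 of the 171 tested members were called (edgeR quasi-likelihood test, Benjamini-Hochberg adjusted p under 0.05), all fbxa: 1 was higher and 2 were lower in the double mutant. Among all tested genes 0.635% were called. An unadjusted p under 0.05 was found for 33 members. The number called depended on the tool: DESeq2 called 9 members, 6 higher and 3 lower. The length offset gave 6 calls, 4 higher and 2 lower. No share of all genes is given for the unadjusted, DESeq2 and length offset counts, so they cannot be read as an excess. In data simulated for genotype at 60 h with 200 changed genes, 23.4% of DESeq2 calls and 6.4% of edgeR calls were of unchanged genes. Of the simulated 2-fold changes edgeR called 22.5% and DESeq2 50.6%, so edgeR missed most of them. The simulation does not tell which count at 52 h is nearer the truth.

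The gene fbxa-74 (chromosome III, 1696952 to 1698986, minus strand) measured 4.84, 5.09 and 3.71 CPM in daf-2 and 9.76, 20.6 and 18.3 CPM in the double mutant at 52 h. At 60 h it measured 1.48, 1.16 and 1.11 CPM in daf-2 and 7.22, 7.01 and 6.39 CPM in the double mutant. Every double mutant library exceeded every daf-2 library of the same time, although the level fell with time in both genotypes. On the log2 scale the genotypes differed by 1.84 (SE 0.25, edgeR adjusted p = 0.0044) at 52 h and 2.46 (SE 0.28, edgeR adjusted p = 6.48e-05) at 60 h.

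The genes fbxa-192 and fbxa-125 went the other way. On chromosome V (17640672 to 17650527, minus strand), fbxa-192 measured 3.35, 2.78 and 3.77 CPM in daf-2 and 1.04, 0.893 and 0.885 CPM in the double mutant at 52 h. At 60 h the values were 4.13, 4.87 and 4.18 CPM against 1.08, 1.71 and 0.758 CPM, so the double mutant was low at both times. Its differences were -1.81 (SE 0.27, edgeR adjusted p = 0.00748) and -1.90 (SE 0.27, edgeR adjusted p = 0.000355). The 52 h call was lost without daf-2 replicate 3 (-1.71, edgeR adjusted p = 0.0521), daf-2;daf-42 replicate 2 (-1.78, edgeR adjusted p = 0.0579) or daf-2;daf-42 replicate 3 (-1.78, edgeR adjusted p = 0.0605). The weakly expressed fbxa-125 on chromosome I measured 0.807, 0.983 and 0.975 CPM in daf-2 and 0.13, 0.0744 and 0.144 CPM in the double mutant at 52 h. It was lower in the double mutant at 52 h (-2.96, SE 0.37, edgeR adjusted p = 0.00227) and at 60 h (-1.74, SE 0.36, edgeR adjusted p = 0.00381). All 3 genes were thus called in the same direction at both times, in libraries that the 2 comparisons do not share.

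At 60 h many fbxa genes were higher in the double mutant, the 4 fbxb calls were all lower, and fbxc genes went both ways. Of 171 tested members, 77 were called, 61 higher and 16 lower, where 34.4% of all tested genes were called, 17.4% higher and 17.0% lower. Among fbxa genes 56 of 129 were higher (43.4%) and 9 were lower. Among fbxb genes none of 19 was higher and 4 were lower (21.1%). Among fbxc genes 5 of 23 were higher and 3 were lower, so 34.8% were called. The share of fbxb genes lower and the share of fbxc genes called were thus near those of all tested genes. Whether either subfamily differed from all tested genes was not tested. The median log2 difference was 0.71 for tested fbxa, -0.24 for fbxb and 0.13 for fbxc genes, beside -0.01 for all tested genes.

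These counts held under several changes of the data. Without the members whose counts were not whole, 67 were called, 51 higher and 16 lower. Other genes that share reads may remain in that set. With the length offset, 61 were higher and 19 lower, and 76 of the 77 calls remained. The median difference was then 0.6 for fbxa and -0.34 for fbxb, and that of fbxc changed sign to -0.09. In the fits that each left out 1 library, 60 to 83 members were called, and 55 of the 77 calls were kept in all 12 fits.

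**Figure D2:**
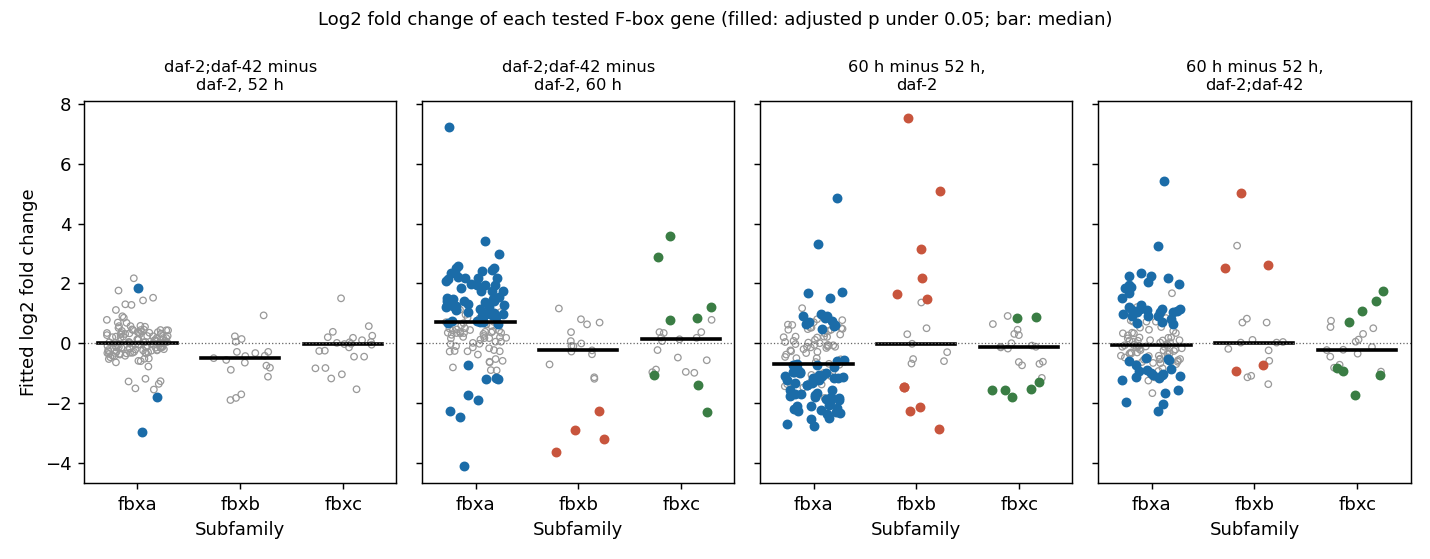
Fitted log2 fold change (vertical axis) of each tested fbxa, fbxb and fbxc gene in the 4 comparisons; filled points have an edgeR adjusted p under 0.05 and bars are medians of the tested members. At 60 h the fbxa points lie mostly above 0 for genotype (median 0.71) and, in daf-2, mostly below 0 for time (median -0.69), while 3 genes are called at 52 h.

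Among the fbxa genes higher in the double mutant at 60 h, fbxa-79 (chromosome III, 1305716 to 1308294, minus strand) measured 3.86, 2.90 and 4.40 CPM in daf-2 and 17.5, 24.7 and 16.7 CPM in the double mutant. The difference was 2.40 on the log2 scale (SE 0.22, edgeR adjusted p = 1.59e-05). All double mutant libraries were high, and replicate 2 was the highest. At 52 h the groups did not overlap either (5.34 to 7.29 CPM and 7.96 to 10.2 CPM), but the difference of 0.57 was not called (edgeR adjusted p = 0.588).

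The neighbouring genes fbxa-37 and fbxa-50 changed in a similar way. At 60 h fbxa-37 (chromosome III, 1284996 to 1287140, plus strand) measured 5.03, 3.43 and 5.31 CPM in daf-2 and 18.9, 33.2 and 17.8 CPM in the double mutant, a difference of 2.34 (SE 0.31, edgeR adjusted p = 0.00024). The gene fbxa-50, on the opposite strand from 1287299 to 1288523, measured 0.524, 0.468 and 0.302 CPM against 3.58, 6.54 and 3.79 CPM, a difference of 3.43 (SE 0.35, edgeR adjusted p = 3.26e-05). For both genes the lowest double mutant library was above the highest daf-2 library at 60 h, while the genotypes overlapped at 52 h.

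On chromosome II, fbxa-3 (1818889 to 1820874, minus strand) measured 2.22, 1.25 and 2.16 CPM in daf-2 and 8.76, 14.8 and 9.12 CPM in the double mutant at 60 h. The difference was 2.53 (SE 0.28, edgeR adjusted p = 5.52e-05). The gene fbxa-60, which shares reads, measured 8.70, 5.75 and 7.65 CPM against 30.0, 38.4 and 31.8 CPM, a difference of 2.18 (SE 0.23, edgeR adjusted p = 4.35e-05). In both cases the groups were well separated. The fbxa gene with the largest fitted difference, fbxa-181, was singled out after its values were seen. It had no count in daf-2 at 60 h and measured 0.525, 0.682 and 0.379 CPM in the double mutant, at least 6.06-fold higher when daf-2 is set to 3 counts per library.

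Another 9 fbxa genes were lower in the double mutant at 60 h. The strongly expressed fbxa-69 (chromosome V, 15814232 to 15815971, minus strand) measured 54.6, 44.5 and 60.3 CPM in daf-2 and 25.2, 25.7 and 19.2 CPM in the double mutant. The difference was -1.19 (SE 0.19, edgeR adjusted p = 0.000877). At 52 h both genotypes lay together, between 14.9 and 21 CPM. The gene fbxa-136 measured 8.14, 15.2 and 5.61 CPM against 3.25, 1.40 and 1.46 CPM at 60 h, a difference of -2.25 (SE 0.44, edgeR adjusted p = 0.00291), or -0.92 with the length offset. The largest negative difference was that of fbxa-42, named after its values were seen, which measured 3.36, 3.09 and 3.07 CPM in daf-2 and 0.197, 0.217 and 0.135 CPM in the double mutant (-4.10, SE 0.41, edgeR adjusted p = 2.54e-05).

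The 4 fbxb genes lower in the double mutant at 60 h were fbxb-65, fbxb-98, fbxb-100 and fbxb-103. Of these fbxb-98 (chromosome II, 1862634 to 1863782, plus strand) had the highest level. It had at most 3 counts in each of the 6 libraries at 52 h and measured 6.01, 4.47 and 16.3 CPM in daf-2 and 1.15, 3.13 and 1.30 CPM in the double mutant at 60 h. The gene was thus detected above that floor only at 60 h, in both genotypes, with the higher levels in daf-2 (-2.27, SE 0.49, edgeR adjusted p = 0.00534). The other 3 were named after their values were seen and stayed under 1 CPM in every library. Their differences at 60 h were -2.90 for fbxb-65 and -3.21 for fbxb-100, while fbxb-103 was at or under 3 counts in the double mutant and at least 4.58-fold lower there.

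Of the fbxc genes, fbxc-58 (chromosome IV, 9371508 to 9373206, plus strand) had the largest positive difference. It measured 1.85, 1.09 and 1.86 CPM in daf-2 and 16.4, 31.9 and 9.29 CPM in the double mutant at 60 h, a difference of 3.57 (SE 0.54, edgeR adjusted p = 0.000547). At 52 h the double mutant also lay above daf-2 without overlap (8.02 to 23.8 CPM and 3.73 to 6.53 CPM), but the difference of 1.50 was not called (edgeR adjusted p = 0.361). The gene fbxc-23 measured 1.60, 1.59 and 1.59 CPM in daf-2 and 3.08, 4.99 and 2.90 CPM in the double mutant, a difference of 1.20 (SE 0.23, edgeR adjusted p = 0.00281).

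The other called fbxc genes were less firm or low. The gene fbxc-54 was higher by 0.79 (edgeR adjusted p = 0.03), a call lost without daf-2 replicate 1 (0.79), daf-2 replicate 2 (0.65) or daf-2;daf-42 replicate 2 (0.53) at 60 h. The gene fbxc-51 was lower by -1.06 (edgeR adjusted p = 0.0271), a call lost without daf-2 replicate 2 (-1.07), daf-2 replicate 3 (-0.90) or daf-2;daf-42 replicate 2 (-0.71). The call of fbxc-4 (0.84, edgeR adjusted p = 0.0443) was lost in 6 such fits, with differences from 0.72 to 0.85: those without daf-2 52 h replicate 3, daf-2 60 h replicate 1 or 2, daf-2;daf-42 52 h replicate 2, or daf-2;daf-42 60 h replicate 1 or 3. Named after their values were seen, fbxc-19 was higher by 2.89 and fbxc-14 lower by -2.30, both at levels of at most 1.02 CPM.

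**Figure D3:**
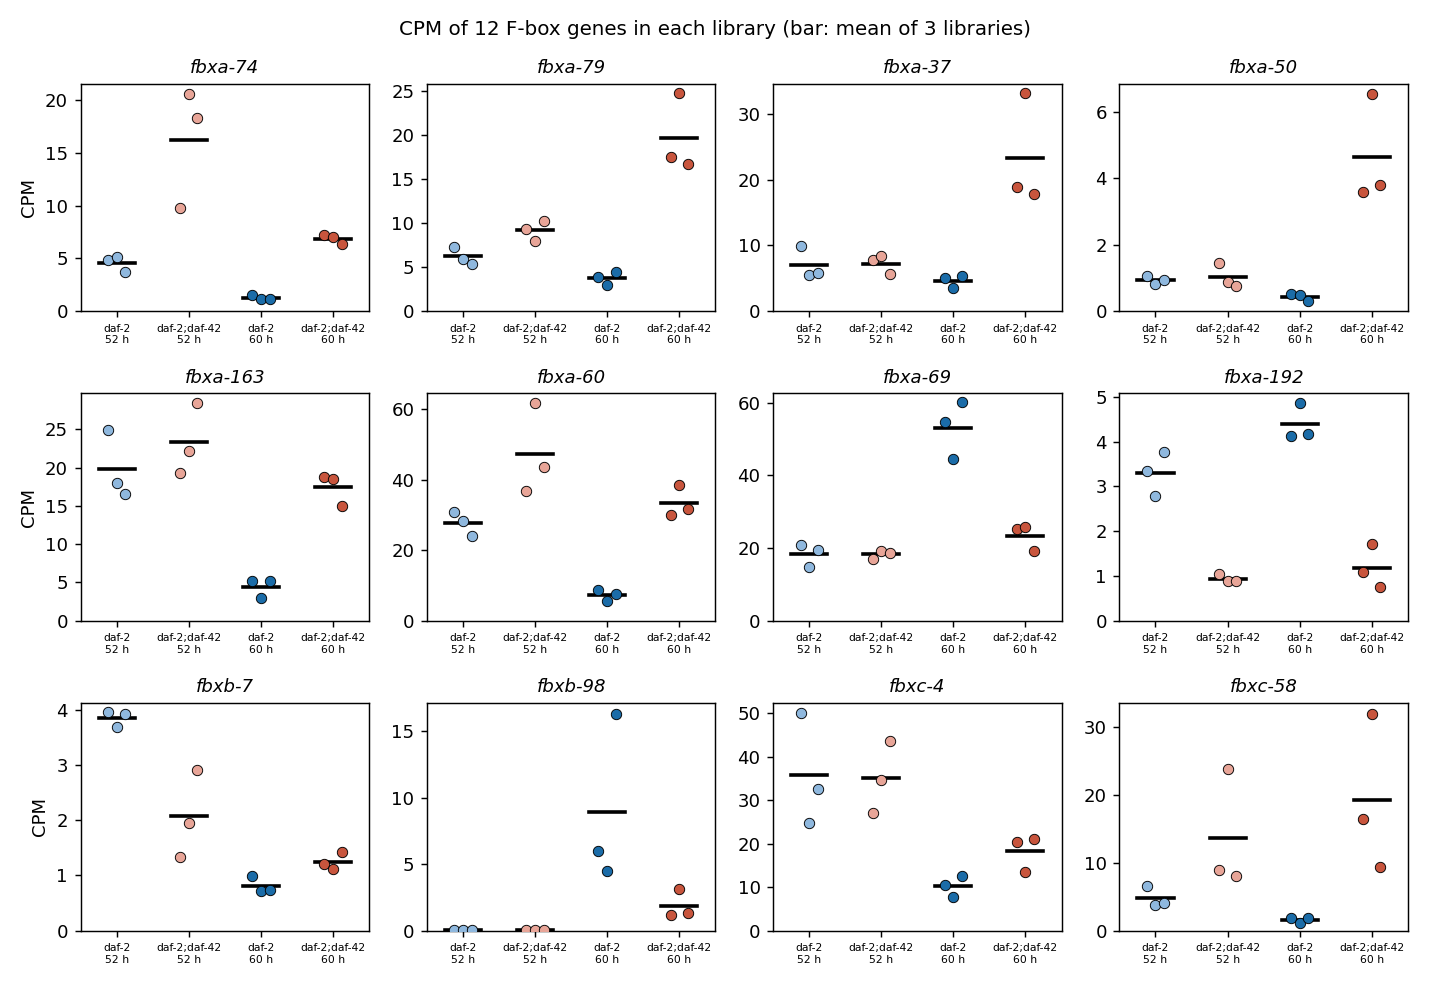
CPM values (vertical axes from 0, scaled for each gene) of 12 F-box genes in each library; points are libraries and bars are means of 3. In the double mutant at 60 h fbxa-79, fbxa-37 and fbxa-50 are highest of the 4 groups, whereas fbxa-69 and fbxb-98 are highest in daf-2 at 60 h.

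Several calls lay in runs of neighbouring genes. In the run of 12 fbxa genes on chromosome III, 6 of 11 tested genes were higher in the double mutant at 60 h and none was lower, beside 43.4% of all tested fbxa genes higher. The called genes were fbxa-31 (1.10), fbxa-37 (2.34), fbxa-50 (3.43), fbxa-36 (1.76), fbxa-35 (1.40) and fbxa-79 (2.40 on the log2 scale). The call of fbxa-31 was lost without daf-2 60 h replicate 2 (1.14) or daf-2;daf-42 60 h replicate 2 (0.81). Other members of the run ranged from -0.28 for fbxa-151 to 1.12 for fbxa-30 and were not called. The gene fbxa-75, which lies next to fbxa-79 and encodes a subunit of a CUL-6 ligase, differed by 0.42 (SE 0.36, edgeR adjusted p = 0.372).

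In a run on chromosome II from 1609252 to 1624672, the 5 tested genes fbxa-163, fbxa-164, fbxa-165, fbxa-166 and fbxa-158 were all higher, by 1.97, 1.55, 1.31, 1.22 and 1.24, and the sixth, fbxa-160, was not tested. All 5 lie on the minus strand. The call of fbxa-166 was lost without daf-2 60 h replicate 2 (1.05) or daf-2;daf-42 60 h replicate 2 (0.98). In a run of 8 genes on chromosome III from 933422 to 954102, 2 of 6 tested genes were higher, fbxa-59 (1.28) and fbxa-60 (2.18), and both share reads. Clustering of direction was not tested beyond these counts, and the runs were picked for their length and calls.

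**Figure D4:**
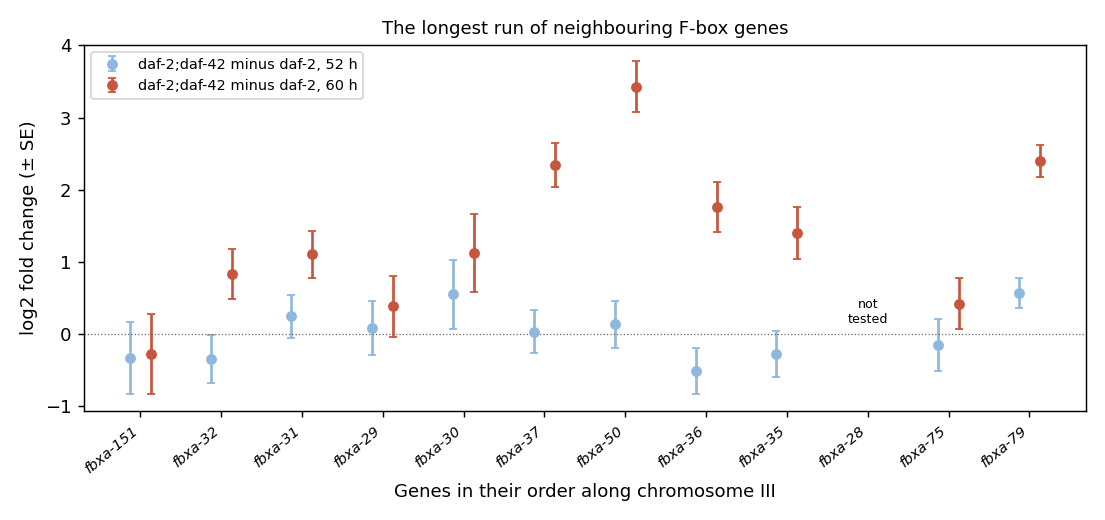
Log2 fold change between daf-2;daf-42 and daf-2 (vertical axis, points with ± SE bars from the fit) for 12 neighbouring fbxa genes in their order along chromosome III, at 52 h and 60 h. At 60 h 6 of 11 tested genes are called higher, up to 3.43 for fbxa-50, and none is called at 52 h.

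In daf-2 the fbxa genes mostly fell between 52 h and 60 h. Of 171 tested members 87 were called, 23 higher and 64 lower at 60 h, where 34.7% of all tested genes were called, 18.5% higher and 16.2% lower. Among fbxa genes 15 rose and 54 of 129 fell (41.9%), among fbxb genes 6 rose and 5 fell, and among fbxc genes 2 rose and 5 fell. Of the 5 fbxc genes that fell, 4 share reads with another gene. The median log2 change was -0.69 for tested fbxa, -0.02 for fbxb and -0.14 for fbxc genes, beside 0.07 for all tested genes. Across the fits that left out 1 library, 66 to 94 members were called, and 50 of the 87 calls were kept in all 12.

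Several fbxa genes lost most of their level. The gene fbxa-219 (chromosome III, 2291415 to 2294191, plus strand) measured 9.91, 6.36 and 7.15 CPM at 52 h and 1.76, 1.28 and 1.48 CPM at 60 h in daf-2, a change of -2.37 (SE 0.25, edgeR adjusted p = 2.31e-05). The gene fbxa-163 (chromosome II, 1609252 to 1610730, minus strand) measured 24.9, 18.0 and 16.6 CPM at 52 h and 5.18, 3.00 and 5.16 CPM at 60 h, a change of -2.15 (SE 0.25, edgeR adjusted p = 4.51e-05). Its neighbour fbxa-164 changed by -1.69 (SE 0.19, edgeR adjusted p = 3.14e-05). The libraries of the 2 times did not overlap for any of these genes. On chromosome IV, fbxa-98 measured 13.1, 12.3 and 10.5 CPM at 52 h and 4.01, 3.68 and 4.25 CPM at 60 h, a change of -1.58 (SE 0.18, edgeR adjusted p = 3.1e-05), and on chromosome V fbxa-199 changed by -2.49 (SE 0.31, edgeR adjusted p = 7.13e-05).

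The opposite change was seen in fbxa-69, which rose from 21, 14.9 and 19.6 CPM to 54.6, 44.5 and 60.3 CPM in daf-2 (1.52, SE 0.19, edgeR adjusted p = 7.83e-05). The gene fbxa-136 rose by 1.67 (SE 0.42, edgeR adjusted p = 0.00853). Because fbxb-98 was at or under 3 counts at 52 h, its rise is given as a bound, at least 110-fold. The gene fbxb-7 (chromosome V, 17377406 to 17379233, plus strand) fell from 3.96, 3.70 and 3.93 CPM to 0.987, 0.718 and 0.730 CPM, a change of -2.25 (SE 0.28, edgeR adjusted p = 7.35e-05). Among fbxc genes, fbxc-4 fell from 50.2, 24.8 and 32.7 CPM to 10.5, 7.71 and 12.6 CPM (-1.80, SE 0.30, edgeR adjusted p = 0.000544), and its read-sharing partner fbxc-5 fell by 1.58 on the same scale (edgeR adjusted p = 0.00225). The gene fbxc-45 rose by 0.85 (edgeR adjusted p = 0.00987), a call lost without daf-2 60 h replicate 2 (0.68, edgeR adjusted p = 0.0519).

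In daf-2;daf-42 members went both ways between 52 h and 60 h. Of 171 tested members 66 were called, 39 higher and 27 lower, where 41.0% of all tested genes were called, 22.4% higher and 18.6% lower. Among fbxa genes 32 rose and 21 fell, among fbxb genes 3 rose and 2 fell, and among fbxc genes 4 rose and 4 fell. The shares of members higher and lower were thus close to those of all tested genes. With the length offset 40 were higher and 38 lower, 33 and 30 of them fbxa genes. The count was 40, with 31 higher and 9 lower, without daf-2;daf-42 52 h replicate 3, and 38 of the 66 calls were kept in all 12 fits that left out 1 library.

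The gene fbxa-3 rose from 2.70, 2.80 and 2.42 CPM to 8.76, 14.8 and 9.12 CPM in the double mutant (2.05, SE 0.27, edgeR adjusted p = 0.000183). The gene fbxa-128 (chromosome III, 11136799 to 11139113, minus strand) rose from 1.17, 0.893 and 1.03 CPM to 3.15, 8.62 and 3.93 CPM (2.34, SE 0.36, edgeR adjusted p = 0.000529). In both genes every 60 h library exceeded every 52 h library, and replicate 2 was the highest. The genes fbxa-37 (1.69), fbxa-50 (2.18) and fbxa-79 (1.10) rose as well.

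Some genes rose or fell in both genotypes. The genes fbxa-101, fbxa-108 and fbxa-138 rose by 0.75, 0.70 and 0.92 in daf-2 and by 1.14, 0.99 and 1.12 in the double mutant, where fbxa-138 had 0.72 with the length offset. Their calls in daf-2 were lost without 52 h replicate 2 (0.67, 0.72 and 0.78), 52 h replicate 3 (0.69, 0.66 and 0.92) or 60 h replicate 3 (0.51, 0.54 and 0.61), and that of fbxa-108 also without 60 h replicate 1 (0.68). The gene fbxa-107 rose by 1.13 in the double mutant (SE 0.22, edgeR adjusted p = 0.00226) and was not called in daf-2 (0.50, edgeR adjusted p = 0.086). On chromosome V fbxa-199 fell by 1.95 and fbxa-135 fell by 1.65 on the log2 scale in the double mutant, after changes of -2.49 and -1.33 in daf-2. The gene fbxa-88 changed by -1.57 in the double mutant and -2.33 in daf-2.

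The gene fbxb-98 rose at least 22.9-fold in the double mutant. The gene fbxb-7 was lower by -0.73 at 60 h, close to the threshold (edgeR adjusted p = 0.0494), and was not called with the replicate number as a block (edgeR adjusted p = 0.0626) or when any 1 library was left out, except the fit without daf-2;daf-42 52 h replicate 1. Its change ranged from -0.84 to -0.37 in those 11 fits, with -0.37 without daf-2;daf-42 52 h replicate 3. Among fbxc genes fbxc-23 rose by 1.08 (SE 0.23, edgeR adjusted p = 0.00413). The rise of fbxc-54 (0.72, edgeR adjusted p = 0.0363) was likewise not called with the replicate block (edgeR adjusted p = 0.0537), and it was lost without daf-2 52 h replicate 2 (0.72) or, in the double mutant, 52 h replicate 1 (0.68) or 3 (0.66) or 60 h replicate 2 (0.46) or 3 (0.82).

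The changes with time in the 2 genotypes rest on separate libraries, although the fit shares 1 estimate of spread. Of the 64 members that fell in daf-2, 24 also fell in the double mutant, where 27 fell in all. Of the 23 that rose in daf-2, 15 also rose in the double mutant, where 39 rose in all. The same overlap is not given for all tested genes, so these counts cannot be read as a trait of the F-box genes. The genes fbxa-50 and fbxa-79 were called lower in daf-2 and higher in the double mutant. The fall of fbxa-50 in daf-2 (-1.12) was lost without 52 h replicate 1 (-1.02), 52 h replicate 3 (-1.13) or 60 h replicate 3 (-0.90), and that of fbxa-79 (-0.73) without 52 h replicate 1 (-0.60) or 60 h replicate 2 (-0.62).

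The difference between these changes was tested as a genotype by time interaction. The daf-2 libraries of 60 h enter this test, the change in daf-2 and the genotype difference at 60 h, so these results are not independent. The interaction was called for 23 of 171 members, 22 with a more positive change in the double mutant and 1 with a more negative one. Among all tested genes 9.52% were called, 5.58% positive and 3.94% negative. With the length offset it was called for 22 positive and 3 negative members. Of the 23, 21 were fbxa genes, and the others were fbxb-7 and fbxc-19. The median interaction was 0.67 for tested fbxa, 0.36 for fbxb and 0.20 for fbxc genes, beside 0.04 for all tested genes. The count moved with single libraries. Without daf-2 52 h replicates 1, 2 and 3 in turn it was 9, 10 and 12, and without daf-2 60 h replicate 2 it was 13. Without double mutant 52 h replicates 1 and 3 it was 10 and 11. Without double mutant 60 h replicates 3 and 1 it was 13 and 36.

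The interaction of 7 genes was called in all 12 of those fits. These were fbxa-50 (3.30, SE 0.48, edgeR adjusted p = 0.00218), fbxa-3 (2.43, SE 0.38, edgeR adjusted p = 0.00343), fbxa-79 (1.83, SE 0.30, edgeR adjusted p = 0.0044), fbxa-37 (2.31, SE 0.43, edgeR adjusted p = 0.00861), fbxa-163 (1.73, SE 0.34, edgeR adjusted p = 0.011), fbxa-36 (2.28, SE 0.47, edgeR adjusted p = 0.0141) and fbxa-128 (2.42, SE 0.51, edgeR adjusted p = 0.0154). The level of fbxa-163 in the double mutant was 19.3, 22.2 and 28.4 CPM at 52 h and 18.8, 18.5 and 15.0 CPM at 60 h, so the fall seen in daf-2 was not called there (-0.42, edgeR adjusted p = 0.167). In fbxa-3 and fbxa-128 the double mutant rose while the change in daf-2 was not called (-0.38 and -0.07). In fbxa-36 daf-2 fell by 2.24 on the log2 scale and the double mutant changed by 0.05.

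The negative interaction was that of fbxa-69 (-1.17, SE 0.27, edgeR adjusted p = 0.0214), which rose in daf-2 and was not called in the double mutant (0.35, edgeR adjusted p = 0.145). Its call was lost without daf-2 52 h replicate 2 (-1.03) or 3 (-1.21), daf-2;daf-42 52 h replicate 3 (-1.09) or daf-2;daf-42 60 h replicate 3 (-1.04). The interaction of fbxa-60 was 1.40 (SE 0.32, edgeR adjusted p = 0.0199) and was lost without daf-2 52 h replicate 1 (1.32) or 2 (1.39) or daf-2;daf-42 52 h replicate 3 (1.40).

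**Figure D5:**
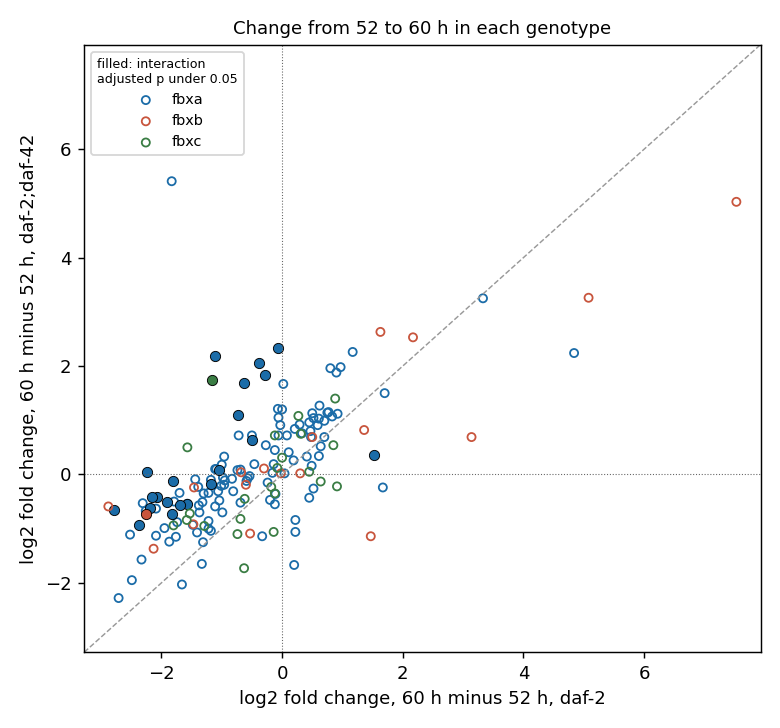
Log2 fold change from 52 h to 60 h of each tested F-box gene in daf-2 (horizontal axis) and daf-2;daf-42 (vertical axis); colours give the subfamily, filled points are the 23 genes with an interaction adjusted p under 0.05, and the dashed line marks equal change. Of the 23 filled points 22 lie above the line and fbxa-69 lies below it.

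The other components of SCF ligases were examined in the same fit. Of 27 listed core genes (cullins cul-1 and cul-6, the RING proteins rbx-1 and rbx-2, cand-1, ned-8 and the Skp1-related skr genes), 26 were in the tables and 19 were tested. At 52 h none was called. At 60 h 6 were higher in the double mutant and none was lower: cul-6 (2.25), skr-3 (1.61), skr-5 (1.46), skr-16 (0.99), ned-8 (0.83) and skr-20 (0.58). Among all tested genes 17.4% were higher and 17.0% lower at that time. The calls of ned-8, skr-16 and skr-20 were each lost in fits without daf-2;daf-42 60 h replicate 2 (0.70, 0.85 and 0.42). That of skr-16 was also lost without daf-2 60 h replicate 1 (0.92) or 2 (0.78). The call of skr-20, at an adjusted p of 0.0493 in edgeR, was lost in 10 such fits, all but those without daf-2 60 h replicate 3 or daf-2;daf-42 60 h replicate 1. The length offset ended the calls of ned-8 (0.26, edgeR adjusted p = 0.134) and skr-20 (0.12, edgeR adjusted p = 0.426), added cul-1 (0.33, edgeR adjusted p = 0.0482) and brought skr-5 to 0.88 and skr-16 to 0.57. The median difference of the list at 60 h was 0.41, beside -0.01 for all tested genes, and 0.12 with the length offset.

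Over time 2 of the 19 core genes rose and 2 fell in daf-2, where 18.5% of all tested genes rose and 16.2% fell. With the length offset 3 rose and 6 fell. In the double mutant 8 rose and 1 fell, where 22.4% of all tested genes rose and 18.6% fell, and with the length offset 6 rose and 1 fell. That offset ended the calls of rbx-2 (0.91 to 0.35), skr-12 (1.40 to 0.82), skr-16 (0.84 to 0.24) and cand-1 (-1.26 to -0.21) in the double mutant. The same 4 calls and that of skr-21 were also lost in fits without daf-2;daf-42 52 h replicate 3, with changes of 0.82, 1.29, 0.91, -1.19 and 0.91. In daf-2 the call of skr-2 (0.90) was lost without 52 h replicate 2 or 3 (both 0.87) or 60 h replicate 3 (0.56). That of skr-20 (-0.59, edgeR adjusted p = 0.0466) was lost in most fits that left out 1 library. It remained only without daf-2 60 h replicate 3 or daf-2;daf-42 60 h replicate 1 or 2.

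A ligase built on the cullin CUL-6, with RCS-1, SKR-3, SKR-4, SKR-5, FBXA-75 and FBXA-158, acts in the intracellular pathogen response of the worm. All 7 genes were tested, and 4 were higher in the double mutant at 60 h: cul-6, skr-3, skr-5 and fbxa-158. Of all tested genes 17.4% were higher in that comparison. The cullin gene cul-6 measured 1.73, 2.25 and 1.36 CPM in daf-2 and 9.35, 10.1 and 5.85 CPM in the double mutant at 60 h (2.25, SE 0.29, edgeR adjusted p = 0.000168). The F-box gene fbxa-158 (chromosome II, 1619814 to 1621280, minus strand) measured 5.86, 4.56 and 4.08 CPM against 12, 12.2 and 10.0 CPM (1.24, SE 0.19, edgeR adjusted p = 0.000553). Both were separated without overlap. The genes skr-3 and skr-5 share reads in 4 and 12 libraries, so their values are less certain. The gene fbxa-75 measured 8.11, 7.15 and 8.81 CPM in daf-2 and 11.1, 13.7 and 7.45 CPM in the double mutant at 60 h, and the groups overlapped.

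At 52 h none of these 7 genes was called for genotype. In daf-2 cul-6 and fbxa-158 fell with time (-1.04 and -1.32) and skr-4 rose (1.15), and in the double mutant skr-4, skr-5 and rcs-1 rose (1.37, 1.34 and 0.76) while fbxa-158 fell (-0.51). The fall of cul-6 in daf-2 was lost without 52 h replicate 1 or 60 h replicate 3 (both -0.87). That of fbxa-158 in the double mutant was lost in 6 fits, with changes from -0.56 to -0.43: those without daf-2 52 h replicate 2, any 1 of the 3 daf-2;daf-42 52 h libraries, or daf-2;daf-42 60 h replicate 2 or 3. The interaction of fbxa-158 was 0.81 (SE 0.26, edgeR adjusted p = 0.0637) and that of fbxa-75 was 0.57 (edgeR adjusted p = 0.43), neither of them called.

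Of 9 listed F-box genes with other names 8 were tested, and 1 of them, dre-1, was called for genotype at 60 h (-1.01, edgeR adjusted p = 0.0121), where 34.4% of all tested genes were called. The call was lost without daf-2 60 h replicate 2 (-0.67, edgeR adjusted p = 0.0581) and with the length offset (-0.13, edgeR adjusted p = 0.558). Over time fog-2, a germline sex determination gene, and its paralogue ftr-1 rose in daf-2 (0.68 and 0.85) and in the double mutant (1.02 and 1.42). In daf-2 their calls were lost without 52 h replicate 2 or 3 or 60 h replicate 3, that of fog-2 also without 52 h replicate 1 or daf-2;daf-42 52 h replicate 3, and that of ftr-1 also without 60 h replicate 1, with changes from 0.46 to 0.88. The gene fbxl-1 fell with time in daf-2 (-0.89, edgeR adjusted p = 0.00344) and in the double mutant (-0.51, edgeR adjusted p = 0.0493). The second call was lost with the length offset (-0.12) and when single libraries were left out, in 9 of 12 fits.

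Markers of tissues differed between the same groups. At 60 h 2 of 3 muscle markers (unc-54 by -2.17 and unc-15 by -1.64) and 4 of 6 germline markers were lower in the double mutant, with no marker of either list higher. Of all tested genes 17.0% were lower and 17.4% higher in that comparison. With the length offset unc-54 differed by -0.72 and unc-15 by -0.87, both called, and 3 germline markers remained lower, without glh-1 (-0.51, edgeR adjusted p = 0.191). Both muscle calls were lost without daf-2 60 h replicate 2 (-1.25 and -0.95) or daf-2;daf-42 60 h replicate 2 (-1.79 and -1.27) or 3 (-2.16 and -1.68). The germline calls of glh-1 (-0.62), pgl-3 (-0.82) and htp-3 (-0.69) were lost without daf-2 60 h replicate 2. Without daf-2;daf-42 60 h libraries, glh-1 was also lost for replicate 1 (-1.09) or 2 (-0.93). The same was true of htp-3 for replicate 2 (-0.67) or 3 (-0.95). The call of gld-1 was kept in all 12 fits. The summed muscle markers ranged from 1330 to 6840 TPM in daf-2 and from 220 to 1200 TPM in the double mutant, and the summed germline markers from 84.7 to 210 TPM and from 31.5 to 59.6 TPM. Of 3 intestine markers ges-1 was higher (0.87) and ifb-2 lower (-1.72), with sums of 225 to 588 TPM in daf-2 and 79.7 to 160 TPM in the double mutant. Neuron markers had 1 of 4 lower, epidermis markers 1 of 3 higher and pharynx markers 0 of 3 called. The calls of unc-31 (neuron, -1.46) and dpy-7 (epidermis, 1.08) were lost without daf-2 60 h replicate 2 (-1.1 and 0.89). They were also lost without daf-2;daf-42 60 h replicate 2 (-1.09 and 1.1) or 3 (-1.33 and 0.88). Adult yolk markers summed to at most 0.105 TPM, with vit-5 at 0 in every library, and the major sperm protein gene msp-3 was at 0 as well. Of 5 sperm markers spe-9 alone was tested, at 1.26 to 2.44 CPM at 52 h and 0.62 to 2.25 CPM at 60 h. It was lower at 60 h in the double mutant (-1.12, edgeR adjusted p = 0.0262), a call lost with the length offset (-0.81, edgeR adjusted p = 0.0562) or without daf-2;daf-42 52 h replicate 3 (-0.74) or 60 h replicate 2 (-0.98) or 3 (-1.15). At 52 h none of the markers was called for genotype. Over time in the double mutant, where 18.6% of all tested genes were lower, unc-54 (-1.74), myo-3 (-2.06) and unc-15 (-1.42) were called lower. No muscle marker was called in daf-2. The length offset ended all 3 calls (-0.26, -0.81 and -0.62), and leaving out single libraries ended them in 5, 4 and 7 of 12 fits. The part of these tissue differences, and of the dead larvae, in the F-box results was not tested.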

How the data were processed

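Whole-animal libraries of polyadenylated RNA (TruSeq Stranded mRNA, per the labels' protocols) were quantified by the authors with kallisto 0.46.1, per the submitters' processing notes. Per the file headers, the deposited tables hold an estimated count and a TPM value per transcript. Members and lists were chosen with earlier results of these data known.

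Transcripts (36172) were assigned to genes through the Ensembl WBcel235 annotation, and 89 did not match. Counts and TPM were summed per gene, and 11 member records that share 4 symbols were summed per symbol (322 records became 315 genes). A gene was taken to share reads where its sum was not whole within 0.01 plus rounding error. Sums were rounded to whole numbers and fitted with the quasi-likelihood test of edgeR 4.0.16 (R 4.3.3) over all 12 libraries, with TMM scaling, filterByExpr by group and 1 mean per group. Benjamini-Hochberg adjustment ran over 16369 genes, and an adjusted p under 0.05 was called. CPM values are scaled to library size after TMM. Fold changes against groups with at most 3 counts per library are bounds that set that group to 3 counts. Code was tested on simulated data.

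Depth was 30011686 to 43519410 estimated counts, so counting error is small beside replicate spread except for genes of a few counts. Alternatives were DESeq2 1.42.0, RLE scaling, no filter (1 count in all), a stricter one (10 counts in 6 libraries), models of only the 2 groups compared, a length offset (lowess, span 0.3), a replicate block, leaving out shared-read members and leaving out each library. Keeping records of 1 symbol apart was added after seeing the data. The replicate numbers were taken to pair libraries where all 3 same-numbered pairs deviated together, with a minimum r of 0.1. This held for genotype at 52 h (r from 0.136 to 0.249) and time in daf-2;daf-42 (r from 0.109 to 0.408). It did not hold for genotype at 60 h (lowest r -0.627) or time in daf-2 (lowest r -0.0251). The labels name no batch. In daf-2;daf-42, 52 h replicate 3 and 60 h replicate 1, of unlike number, reached r = 0.294, so that pairing is uncertain.

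Named members were fbxa-75 and fbxa-158, up to 5 called members per comparison, direction and subfamily with the lowest adjusted p among those free of shared reads and with a log2 CPM averaging 1 or more, all called for genotype at 52 h, up to 6 per direction of the interaction, the 3 of highest mean TPM per subfamily, and called pathway genes. A part of the rule on sequence shared between copies was not applied, since no transcript sequence was used here. Genes described by their run, their read sharing or as seen after their values fall outside the rule.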

Additional observations from a re-analysis of the deposited data

Results flagged for a closer look

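The change from 52 h to 60 h differed between daf-2 and daf-2;daf-42, by the interaction test in edgeR, for 23 F-box genes, cul-6 and ned-8. All but 1 were more positive in the double mutant. Among all tested genes 9.52% were called, 5.58% positive and 3.94% negative. Of the 23 F-box calls, 16 were lost in at least 1 of the 12 fits that left out 1 library. With the replicate block 16 of the 23 remained, without fbxa-156, fbxa-157, fbxa-6, fbxa-44, fbxa-115, fbxa-80 and fbxa-143. The largest interactions on the log2 scale were 3.30 for fbxa-50, 2.91 for fbxc-19, 2.43 for fbxa-3, 2.42 for fbxa-128, 2.31 for fbxa-37, 2.28 for fbxa-36, 2.12 for fbxa-18 and 2.11 for fbxa-143. They were 1.83 for fbxa-79, 1.73 for fbxa-163, 1.69 for fbxa-35, 1.66 for fbxa-80, 1.57 for fbxa-44, 1.52 for fbxb-7, 1.45 for fbxa-219 and 1.40 for fbxa-60. The read-sharing pair fbxa-156 and fbxa-157 each had 1.14. The smaller ones were 1.12 for fbxa-164, 1.10 for fbxa-6, 1.04 for fbxa-98 and 1.02 for fbxa-115, and fbxa-69 had -1.17. Among the ligase core genes the interaction was 1.35 for cul-6 and 1.09 for ned-8, and these calls were lost in 7 and 10 of the 12 fits that left out 1 library. With the length offset fbxa-18 (1.53, edgeR adjusted p = 0.0562), fbxa-35 (1.41, edgeR adjusted p = 0.0611) and ned-8 (0.45, edgeR adjusted p = 0.11) were not called.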

How the results depend on the processing

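For genotype at 52 h, DESeq2 called 9 and the length offset 6 members in place of 3, and leaving out 1 library gave 2 to 6. Leaving out 1 library gave 60 to 83 calls for genotype at 60 h (77), 66 to 94 for time in daf-2 (87), and 9 to 36 for the interaction (23). For time in the double mutant (66) it gave 40 to 70. The other alternatives kept these counts within 1.5 times, and with records of 1 symbol kept apart, an alternative chosen after seeing the data, they were 3, 79, 90, 68 and 23. The cause of these shifts was not tested. With the replicate block the counts were 3, 73, 76, 62 and 16. In time in daf-2;daf-42, where the numbers were taken to pair the libraries, the block lost 5 calls (fbxb-7, fbxa-53, fbxc-54, fbxa-190 and fbxa-48). It gained fbxb-56 there, and it changed none for genotype at 52 h. Of the alternative values for named genes, 3587 kept direction and side of the threshold, 142 lost the call and 30 gained it. The change of fbxa-136 in daf-2;daf-42 reversed with the length offset, to 1.11 from -0.24. The models of only 2 groups gave no interaction. For members with few counts, the depth limits what can be seen: 121 had under 10 counts in every library.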
